A study of Mus musculus with 8 samples.

Results

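Long intergenic noncoding RNAs (lincRNAs) are transcribed from their own loci between coding genes, usually spliced and polyadenylated, and are not translated into a known protein. Their annotated class mixes well-described regulators, hosts of microRNAs and many loci that carry only a numbered name. Many are kept in the nucleus close to chromatin, and others act in the cytoplasm as decoys for proteins or microRNAs. The lincRNA class genes described here were the rows of the deposited count table whose Ensembl identifier has the gene type lincRNA in GENCODE M21 and which held 20 or more counts summed over all 8 libraries. Lhx1os itself, small nucleolar RNA hosts of the Snhg series and a set of abundant or imprinted RNAs such as Malat1, Meg3 and H19 were left out. This gave 568 genes of 55471 in the table. The class held 5617 genes, of which 2009 had a count and 584 had 20 or more, and 16 of those were left out by name. The genes were thus chosen by their summed counts, which include the libraries compared below. Just outside the limit were 18 lincRNA genes with 19 counts, and just inside it 8 with 20.

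The study asked which RNAs are recovered with Lhx1os, a long noncoding RNA of mouse spinal motor neurons. The neurons were differentiated from HBG3 mouse embryonic stem cells, which carry the HB9::GFP reporter, and kept for 3 days after plating. All groups share these cells: Input is RNA before capture, ODD and EVEN are pull-downs with separate sets of biotinylated antisense probes of 20 nt against all Lhx1os isoforms, and LacZ is a pull-down with probes against a bacterial mRNA. Each group had 2 libraries from 2 independent experiments, numbered replicate 1 and replicate 2, so that the numbers pair libraries across groups. The reporter marks the motor neurons but the labels name no sort, and the stem cells could be grown on embryonic fibroblasts.

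Total counts were 20515501 to 24628435 in Input and 7632775 to 12563449 in the pull-downs. The 8 motor neuron markers summed to 249 to 434 CPM (counts scaled to library size, with TMM factors) in Input and 255 to 429 CPM over all pull-downs. Marker sums of progenitors, glia and fibroblasts were also above 100 CPM in every library. The glial sum came from Slc1a3, Fabp7, Sox10 and Olig1, while Gfap reached at most 0.87 CPM and Aqp4 at most 1.03 CPM. Of the 4 pluripotency genes, Pou5f1 and Dppa5a were at 0 in Input. The other pluripotency genes were low in Input, Nanog at 0.412 and 0.0974 CPM and Zfp42 at 0.0412 and 0.146 CPM. The cultures were thus mixed, and the part of other cell types in the values below was not tested. In such bulk samples, fewer cells of a type and less RNA per cell cannot be told apart.

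The label intergenic held for most but not all of the 568 genes. Of these, 489 overlapped no coding gene, at a median distance of 11.254 kb to the nearest one, and 109 of them lay within 1 kb. The other 79, or 13.9%, overlapped a coding gene, and 56 of them overlapped a coding exon. Overlap was on the opposite strand for 56 and on the same strand for 26. The libraries keep the strand, but the sources used here do not say whether counting used it, so values of overlapping genes are uncertain. The median exonic length was 2388 bases, 118 genes had a single exon, 322 had a Gm number and 176 a Rik clone name.

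Pull-down probes and partner RNAs pair by sequence, so the transcripts were searched for exact matches with the 3 Lhx1os isoforms on both strands. The long same-strand matches of the lincRNAs fell in bases 192 to 257 of the isoform ENSMUST00000134800.7. These bases resemble a B1 element, a short interspersed repeat found throughout the mouse genome. The antisense matches printed below overlap the same bases. The stretch is shown first because all 11 genes with a match of 20 bases or more on the same strand matched there, and capitals mark it. The next 3 sequences are the genes with the longest matches on the Lhx1os strand, and the 3 after them those with the longest antisense matches, with the match in capitals. All sequences are GRCm38 transcript sequence from GENCODE M21, 5′ to 3′.
Lhx1os, exon 3, chr11:84535125-84535214, plus strand: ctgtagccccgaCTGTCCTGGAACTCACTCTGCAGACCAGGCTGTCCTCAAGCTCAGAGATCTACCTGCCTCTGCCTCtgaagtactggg
Gm49092, exon 1, chr17:23572580-23572633, minus strand: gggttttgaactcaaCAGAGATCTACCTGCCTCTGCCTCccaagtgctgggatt
Gm42595, exon 1, chr5:110661811-110661862, plus strand: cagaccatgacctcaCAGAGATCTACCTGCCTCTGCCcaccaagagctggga
Gm20342, exon 1, chr1:63124959-63125008, plus strand: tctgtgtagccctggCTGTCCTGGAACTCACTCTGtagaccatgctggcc
Gm21269, exon 1, chr7:73822600-73822661, plus strand: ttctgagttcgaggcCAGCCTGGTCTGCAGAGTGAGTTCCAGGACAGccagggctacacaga
Gm46565, exon 3, chr16:30913855-30913906, minus strand: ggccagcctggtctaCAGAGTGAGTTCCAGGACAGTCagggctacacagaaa
Jpx, exon 3, chrX:103503864-103503913, plus strand: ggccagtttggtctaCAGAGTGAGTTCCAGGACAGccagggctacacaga

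Gm48623 is shown next because it had the largest difference of all tested lincRNAs between the Lhx1os probes and the LacZ probes. Its longest match with Lhx1os was 11 bases on the same strand and 12 bases antisense, so no run of its sequence was as long as a probe of 20 nt. Capitals mark the antisense match and, in Lhx1os, its counterpart.
Gm48623, exon 3, chr13:54312332-54312391, plus strand: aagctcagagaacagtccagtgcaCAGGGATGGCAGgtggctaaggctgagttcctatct
Lhx1os, exon 2, chr11:84534542-84534601, plus strand: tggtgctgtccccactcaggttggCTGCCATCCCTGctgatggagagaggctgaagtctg

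The study's title concerns low-complexity repeats, runs of sequence made from few kinds of base or short unit. The longest such stretch found by dustmasker is shown, in capitals, for Gm48623 and for Gm32849, which rose in all 3 kinds of pull-down.
Gm48623, exon 3, chr13:54312536-54312595, plus strand: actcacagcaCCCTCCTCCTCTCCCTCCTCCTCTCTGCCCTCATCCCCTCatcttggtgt
Gm32849, exon 2, chr7:49085358-49085395, plus strand: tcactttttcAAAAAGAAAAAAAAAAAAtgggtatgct
The stretches differ in kind: that of Gm48623 is almost all C and T, and that of Gm32849 almost all A.

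Together the 568 lincRNAs held 0.318% and 0.304% of all Input counts. Their share of counts was 0.423% and 0.389% with LacZ probes, 0.417% and 0.366% with ODD probes, and 0.420% and 0.327% with EVEN probes. All 6 pull-down libraries were above both Input libraries, and the LacZ libraries lay in the range of the Lhx1os probes or above it. Most of the genes were rare. The median sum over all libraries was 93 counts, 57 genes had 1000 or more, and 296 had fewer than 100. A filter on low counts kept 352 for testing and left out 216. In Input, 128 of the 568 had fewer than 20 counts while the pull-downs had 20 or more in all, and 31 of these low-Input genes were among the 352.

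Enrichment over Input was counted first. In edgeR's quasi-likelihood test, with p adjusted by Benjamini-Hochberg over all 16524 genes tested, 22 of the 352 tested lincRNAs were higher than Input in LacZ (6.25%, against 6.98% of all genes tested), 20 in ODD (5.68%, against 6.46%) and 15 in EVEN (4.26%, against 5.37%). None was lower, where 0.43%, 0.375% and 0.284% of all genes were. At an unadjusted p under 0.05, 2 were lower in LacZ, 3 in ODD and 4 in EVEN, where 5.77%, 5.32% and 5.22% of all genes were, and DESeq2 called 0 lincRNAs lower. The shares of lincRNAs called higher were near the background of all genes. Their median log2 fold change was 0.31 in LacZ, 0.25 in ODD and 0.22 in EVEN, where all genes tested had -0.05, -0.03 and -0.00. Above 0 were 242, 240 and 237 of the 352, and the share of all genes above 0 was not taken. The 321 tested lincRNAs with 20 or more counts in Input had medians of 0.23, 0.19 and 0.15. Called higher were 16, 12 and 9 of them (4.98%, 3.74% and 2.80%), or 43, 42 and 42 with the replicate block described next. The share of all genes with as many Input counts was not taken, so these calls have no background. The 31 with fewer entered the test through their pull-down counts, which fixes their direction. The filter looks at single libraries, so some of the 321, such as Gm32849 described below, also needed pull-down libraries to pass. The 142 tested lincRNAs with 100 or more Input counts had medians of 0.15 in LacZ, 0.15 in ODD and 0.15 in EVEN.

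With the replicate block, a term for the experiment that pairs libraries across groups, 60 lincRNAs were higher in LacZ (17.05%, against 12.7% of all genes), 64 in ODD (18.2%, against 12.6%) and 57 in EVEN (16.2%, against 12.8%). The numbers lower were 2, 2 and 4, against 7.0%, 6.55% and 6.41% of all genes. Lower in all 3 pull-downs in that fit were 4632415L05Rik and C030037D09Rik, chosen for mention after their values were seen. 4632415L05Rik had 53.7 and 49.4 CPM in Input and 35.3 to 38.5 CPM in the pull-downs, at log2 fold changes of -0.51 in LacZ, -0.46 in ODD and -0.50 in EVEN (adjusted p 0.019, 0.0276 and 0.0218). Lower in EVEN alone, by the same fit, were AI504432 at -0.71 and Gm20300 at -0.61. Higher ones made up 96.8%, 97.0% and 93.4% of the calls in that fit, against 64.4%, 65.8% and 66.7% for all genes. When the trend on GC content was also removed, 61, 62 and 53 lincRNAs were higher (17.3%, 17.6% and 15.1%, against 13.7%, 13.8% and 14.3% of all genes). Lower were 12, 18 and 13 (3.41%, 5.11% and 3.69%, against 8.89%, 8.52% and 7.82%). Higher ones thus made up 83.6%, 77.5% and 80.3% of the calls, against 60.7%, 61.8% and 64.6% for all genes.

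Single libraries decided many of the calls made without the block. When Input replicate 1 was left out, the number called higher was 2 in LacZ (Gm9801 and A230057D06Rik), 1 in ODD (Gm9801) and 0 in EVEN, while of all genes 1.24%, 0.759% and 0.0% were called. Leaving out Input replicate 2 gave 14, 13 and 7 (4.37%, 3.62% and 2.35% of all genes), and leaving out LacZ replicate 2 gave 7 in LacZ (2.86% of all genes). In ODD it was 7 without ODD replicate 2 (3.66% of all genes), and 13 without ODD replicate 1 or either EVEN library (4.26% to 5.09%). In EVEN it was 2 without EVEN replicate 1 (Gm32849 and A230057D06Rik; 1.30% of all genes) and 7 without EVEN replicate 2 (3.42%). The calls over all genes thus fell along with those of the lincRNAs.

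Other gene classes differed widely in the share called higher. Protein-coding genes had 0.557% in LacZ, 0.543% in ODD and 0.535% in EVEN, and antisense genes 3.39%, 2.03% and 1.69%. Processed transcripts, noncoding RNAs without an open reading frame, had 7.08%, 4.17% and 2.5%. Processed pseudogenes, copies of spliced RNAs, had 19.8%, 12.7% and 9.26%. Sense-intronic genes had 52.9%, 53.6% and 39.9%, and genes of the class TEC, which await experimental evidence, 61.5%, 58.7% and 48.8%. The lincRNAs, at 4.26% to 6.25%, lay between the coding and the intronic classes. With the replicate block the shares were higher: 3.72%, 4.23% and 5.24% of protein-coding genes, 10.5%, 9.15% and 9.15% of antisense genes and 18.3%, 19.2% and 15.8% of processed transcripts. In that fit processed pseudogenes had 38.9%, 24.9% and 23.3%, sense-intronic genes 75.8%, 74.5% and 71.2% and TEC genes 81.1%, 79.8% and 75.1%. These shares are a description, and the difference between classes was not tested.

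**Figure D1:**
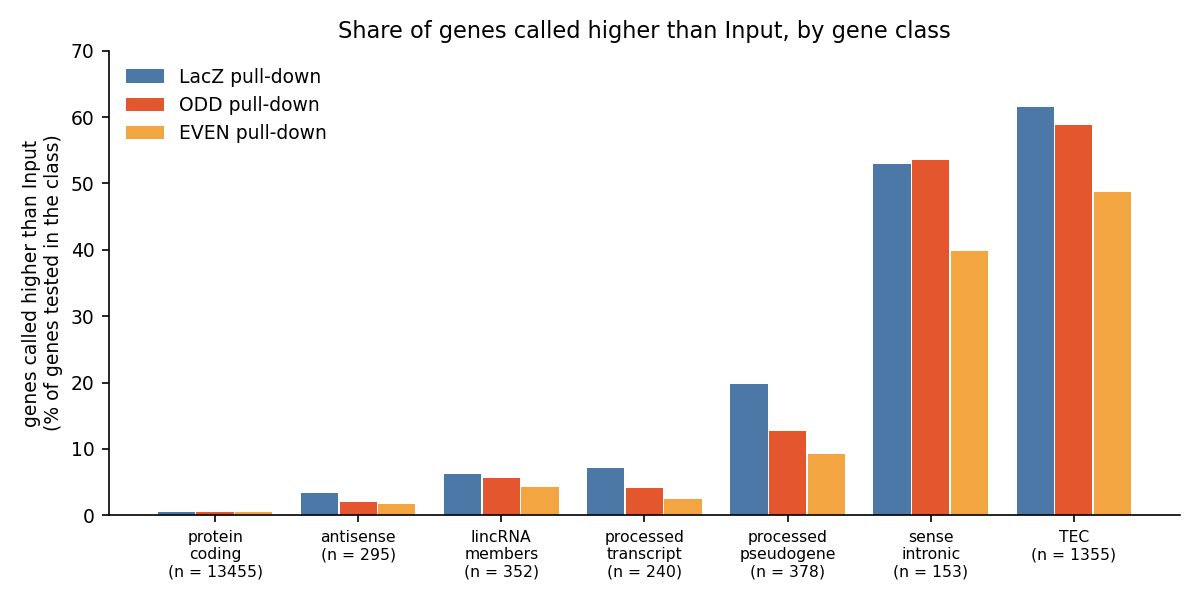
Percent of tested genes called higher than Input (y axis, edgeR's quasi-likelihood test, adjusted p under 0.05) in LacZ (blue), ODD (red) and EVEN (orange), by gene class with the number tested. The lincRNAs, at 6.25%, 5.68% and 4.26%, are close to processed transcripts and far below the sense-intronic and TEC classes.

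The most abundant lincRNAs in Input were compared per length, in FPKM (counts scaled to gene length and library size). They were led by 2900097C17Rik, the mouse Norad, a cytoplasmic RNA that binds Pumilio proteins, at 83.8 ± 3.10 FPKM (SD, n = 2) in Input. With LacZ probes it had 69.4 ± 2.41, and 69.8 ± 6.53 in ODD and 70.9 ± 4.37 in EVEN. Both Input libraries, with 407 and 422 CPM, were above all pull-downs, which lay between 316 and 370 CPM. The log2 fold change was -0.31 in LacZ, -0.27 in ODD and -0.22 in EVEN, and none passed the test (adjusted p 0.353, 0.439 and 0.536 in the quasi-likelihood test of edgeR).

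Next in Input were Gm10076 at 69.4 ± 21.8 FPKM, Gm42047 at 58.4 ± 26.2, and 1700020I14Rik, the mouse Cyrano, at 35.8 ± 6.95 (SD, n = 2 each). Cyrano is a cytoplasmic RNA that drives the decay of miR-7. It had 343 and 257 CPM in Input, against 274 and 239 with LacZ probes, 290 and 217 with ODD probes and 276 and 212 with EVEN probes. Within each experiment every pull-down was below Input for Cyrano, at log2 fold changes of -0.23, -0.24 and -0.30 that did not pass the test (SE 0.24 each). With the block and the GC trend removed, Cyrano was lower, at -0.75, -0.76 and -0.78 (adjusted p 0.00471, 0.00479 and 0.00508 by edgeR). Then came C130071C03Rik, a host of a miR-9 gene, at 23.0 ± 6.92 and Rmrp, the RNA of the RNase MRP enzyme, at 21.5 ± 1.02. C130071C03Rik was almost level across groups, with 3896 and 2109 counts in Input and log2 fold changes of -0.00 in LacZ, -0.02 in ODD and -0.03 in EVEN (SE 0.36 each). Its replicate 1 library was above its replicate 2 library in each group, by CPM of 161 against 103 in Input and 157 against 100 in EVEN. Rmrp, which overlaps an exon of Ccdc107 on the opposite strand, had 6.34 and 5.84 CPM in Input, against 7.86 and 16.7 with LacZ probes, 7.96 and 16.5 with ODD probes and 8.55 and 10.8 with EVEN probes. All 6 pull-downs were above Input for Rmrp, but the replicates differed by about as much as the groups, and no comparison passed the test (adjusted p 0.293 to 0.514 by edgeR). With the block and the GC trend removed, Rmrp passed in LacZ (1.24, adjusted p 0.0374) and ODD (1.18, 0.0422).

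Gm42047 split by experiment more than by group. It overlaps the coding locus Gm20388 on the same strand and had 441 and 225 CPM in Input, against 693 and 333 with LacZ probes, 684 and 319 with ODD probes and 677 and 323 with EVEN probes. Replicate 1 was above replicate 2 in every group, and within each replicate every pull-down was above Input. Its log2 fold changes of 0.59 to 0.62 did not pass edgeR's test (adjusted p 0.668 in LacZ, 0.69 in ODD and 0.674 in EVEN). With the replicate as a block they did, with adjusted p 0.0114, 0.0153 and 0.0161. Marker genes split by experiment too. Of 6 glial markers, 4 (Slc1a3, Fabp7, Sox10 and Olig1) were higher in replicate 1 of every group, with Sox10 at 220 and 51.6 CPM in Input, while Gfap, under 1 CPM in each library, was higher in replicate 2 and Aqp4 was mixed. Of 8 motor neuron markers, 6 were higher in replicate 2 of every group. Their part in the split of Gm42047 was not tested.

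Lists of described lincRNAs gave no call in edgeR's test without a block and with the low-count filter. Of the X chromosome and chromatin list, 5 genes were among the 568 and 4 were tested, namely Jpx and Ftx of the X-inactivation centre, Lncpint and Trp53cor1, the p53-induced lincRNA-p21. Their median log2 fold change was 0.65 in LacZ, 0.67 in ODD and 0.72 in EVEN, against -0.05, -0.03 and -0.00 for all genes. These medians include Lncpint, whose direction the filter fixed. Among the other genes tested, Jpx, given below, held the middle value. Ftx had 10.5 and 7.79 CPM in Input and 12.7 to 22.1 CPM in the pull-downs, so the groups did not overlap. It passed with the replicate block, with log2 fold changes of 0.91 in LacZ, 0.84 in ODD and 0.90 in EVEN and adjusted p 0.0106, 0.0147 and 0.012 (0.185, 0.225 and 0.179 without the block). Lncpint had 2 and 12 counts in Input, against 9 and 25 with LacZ probes, 12 and 29 with ODD probes and 14 and 15 with EVEN probes. With so few in Input, it entered the test through its pull-down counts, which fixes its direction. It passed with the block (adjusted p 0.0245, 0.0176 and 0.0455 by edgeR) and, without the low-count filter, in LacZ (0.00744) and ODD (0.00326). Trp53cor1, at -0.18 to -0.25, and Jpx, at 0.40 to 0.52, passed in neither fit. Xist, the RNA that coats the inactive X chromosome, had 1 to 11 counts in each library and was not tested.

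All 6 hosts of microRNAs were tested. Mir124a-1hg, a host of the neuronal miR-124, had 19.2 and 48.1 CPM in Input, against 47.4 and 87.0 with LacZ probes, 42.9 and 81.8 with ODD probes and 50.4 and 75.9 with EVEN probes. Within each experiment every pull-down was above Input, while replicate 2 of Input lay among the replicate 1 libraries of the pull-downs. Its log2 fold changes were 1.00, 0.89 and 0.91, with adjusted p 0.392, 0.46 and 0.433 by edgeR without the block and 0.00569, 0.00929 and 0.00785 with it. Mir124-2hg, a second host of that microRNA, had log2 fold changes of 0.26, 0.23 and 0.10, and Mir17hg, host of the miR-17-92 cluster, 1.21, 0.95 and 1.13. Neither passed with or without the block, and neither did C130071C03Rik, Mir9-3hg or Mir670hg. Without the low-count filter, Mir17hg passed in LacZ and EVEN (adjusted p 0.0289 and 0.0492) and Mir124a-1hg in all 3 (0.0203, 0.0491 and 0.046). With the block and the GC trend removed, Mir9-3hg passed in all 3 (0.0168, 0.0245 and 0.031). The median of the 6 hosts was 0.32 in LacZ, 0.29 in ODD and 0.24 in EVEN.

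None of the 5 neural members passed, with or without the block. In EVEN, A330008L17Rik was called in 1 of 15 alternative fits. Pantr1, transcribed beside the neural transcription factor gene Pou3f3, had 509 and 812 counts in Input, against 154 and 224 with LacZ probes, 274 and 210 with ODD probes and 258 and 267 with EVEN probes. Its log2 fold changes were -0.62, -0.52 and -0.40 (SE 0.29 to 0.30). In CPM, replicate 2 of Input, at 39.6, was the high library, and replicate 1, at 20.97, lay within the 19.5 to 23.997 of the pull-downs. Among the 3 listed as stable transcripts or decoys, Epb41l4aos had log2 fold changes of -0.39, -0.17 and 0.23 and, like Norad and Cyrano, did not pass. Platr4, a pluripotency-associated transcript and the single tested one of its list of 3, had 6 and 12 counts in Input and 11 and 25 in LacZ. It passed in LacZ with the block (log2 fold change 2.11, adjusted p 0.00956), and at 1.24 in ODD and 1.36 in EVEN it did not (adjusted p 0.0838 and 0.0595). Platr4 too entered the test through its pull-down counts, which fixes its direction.

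**Figure D2:**
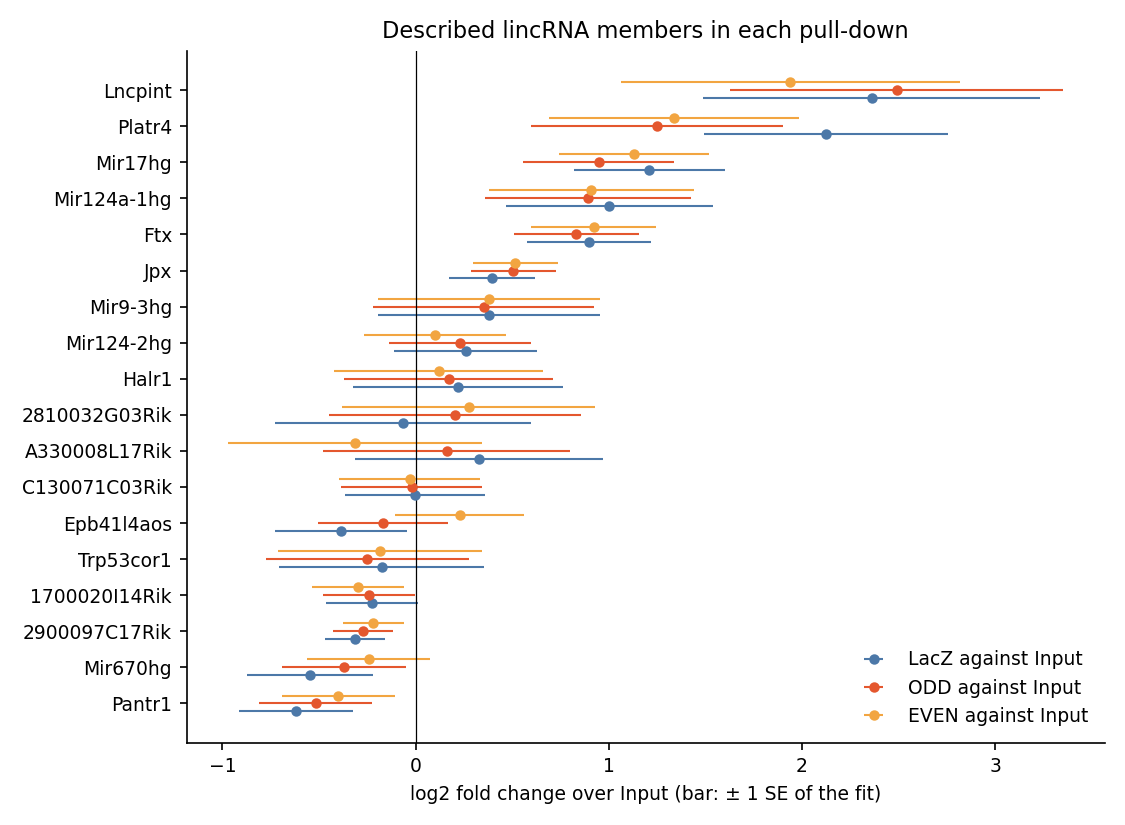
Log2 fold change over Input (x axis) of the 18 listed lincRNAs with 100 or more counts, in LacZ (blue), ODD (red) and EVEN (orange); points are the values fitted over 2 libraries a group and bars are ± 1 SE. Values run from -0.62 for Pantr1 in LacZ to 2.49 for Lncpint in ODD, and for most genes the bars of the 3 pull-downs overlap. Lncpint and Platr4 had under 20 Input counts and were tested because of their pull-down counts.

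In all 3 kinds of pull-down, 13 of the 352 tested lincRNAs were higher than Input, where 5.02% of all genes tested were, and 25 were in at least 1 (7.54% of all genes). With the block, 48 were higher in all 3 (10.3% of all genes), which included the 13, and 73 in at least 1 (15.6%). The 3 comparisons share the Input libraries. The 13 were Gm32849, Gm13052, Gm32647, Gm45159, A430106G13Rik, C130073E24Rik, B830012L14Rik, Gm47701, Gm17203, A230057D06Rik, Gm9801, Gm43598 and 5330434G04Rik. Of these, 4 had fewer than 20 counts in Input, which fixes their direction, and 2 overlapped a coding exon. Gm32849, Gm45159 and A430106G13Rik had 20 or more but also needed pull-down libraries to pass the low-count filter. Limma on log2(FPKM + 1) called 5 of the 13 in all 3, and without Input replicate 1 edgeR called 0. On chromosome 7 lay 5 of the 13, where 27 of the 352 tested lincRNAs lie. The chromosome was picked for mention after the calls were seen, and A230057D06Rik and Gm9801 are neighbours on it. Whether calls gather there was not tested, and the share of all called genes that lie there was not taken.

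The largest increase with 20 or more Input counts was in Gm32849 (ENSMUSG00000109203), a gene of 2 exons at bases 49085083 to 49086981 of chromosome 7 (plus strand), inside Nav2, the gene of a neuronal migration protein, on the same strand and outside its exons. It had 14 and 12 counts in Input, against 151 and 161 with LacZ probes, 252 and 122 with ODD probes and 201 and 85 with EVEN probes. In CPM, both Input libraries were below 0.6 and the lowest pull-down was at 7.64, so every pull-down was above Input. At this Input level Gm32849 passed the low-count filter through its pull-down counts, so its direction is no independent result. The log2 fold change was 4.83 in LacZ (SE 0.53, adjusted p 0.00392), 4.77 in ODD (adjusted p 0.00427) and 4.39 in EVEN (adjusted p 0.00687), as edgeR tested them. Without Input replicate 1 the changes were 4.81, 4.75 and 4.37 with adjusted p 0.059, 0.0647 and 0.093, and without Input replicate 2 the adjusted p in EVEN was 0.0534. Its values in ODD and EVEN were not above LacZ: the log2 fold change of their mean against LacZ was -0.25 (p 0.525).

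Gm45159 (ENSMUSG00000109125) lies on chromosome 7 from 90887072 to 90940052 and overlaps an exon of Dlg2, the gene of a postsynaptic scaffold protein, on the same strand, so its counts may hold Dlg2 reads. It had 14 and 27 counts in Input, against 51 and 225 with LacZ probes, 93 and 211 with ODD probes and 97 and 133 with EVEN probes. Replicate 2 was the higher in every group, and no pull-down library reached down to Input. The log2 fold changes were 3.80, 3.87 and 3.42 (SE 0.76 each), with adjusted p 0.0286, 0.0281 and 0.049 by edgeR. The adjusted p rose to 0.201, 0.202 and 0.283 without Input replicate 1, and to 0.0892, 0.0914 and 0.122 without Input replicate 2. It rose above the threshold too in LacZ without LacZ replicate 2 (0.141), in ODD without ODD replicate 2 (0.0967), and in EVEN without EVEN replicate 1 (0.122) or 2 (0.162). Without either EVEN library it was 0.0502 to 0.0505 in LacZ and ODD. Limma on log2(FPKM + 1), a scale that understates the change of low genes, gave 0.54, 0.56 and 0.42 for Gm45159 and no call (adjusted p 0.257, 0.243 and 0.385). In EVEN the call was also lost with total library size (0.0539) and with the filter of 50 counts (0.0752), and with the block and the GC trend removed the changes were 2.47, 2.62 and 2.42, all called.

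A430106G13Rik (ENSMUSG00000098206), a single exon at bases 137966531 to 137969918 of chromosome 1, had 14 and 24 counts in Input, against 86 and 106 with LacZ probes, 113 and 64 with ODD probes and 109 and 70 with EVEN probes. Its log2 fold changes of 3.54, 3.13 and 3.15 passed edgeR's test at adjusted p 0.00535, 0.00815 and 0.0106. C130073E24Rik (ENSMUSG00000110246), on chromosome 8 from 50743291 to 50916997, had 2.02 and 3.36 CPM in Input, against 18.6 and 31.2 with LacZ probes, 18.02 and 33.2 with ODD probes and 16.3 and 14.8 with EVEN probes. Its changes were 3.21, 3.25 and 2.54, at adjusted p 0.00714, 0.00776 and 0.0195. For both genes all pull-downs were above Input. Averaged, ODD and EVEN were not above LacZ, at -0.40 for A430106G13Rik (p 0.267) and -0.32 for C130073E24Rik (p 0.376). Without Input replicate 1 the adjusted p of A430106G13Rik was 0.053, 0.0687 and 0.0882, and that of C130073E24Rik 0.0755, 0.0812 and 0.156. In EVEN, A430106G13Rik was also lost without EVEN replicate 1 (0.0613), and C130073E24Rik without Input replicate 2 (0.0612), EVEN replicate 1 (0.0914) or EVEN replicate 2 (0.0576).

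B830012L14Rik (ENSMUSG00000098202), on chromosome 12 from 109695586 to 109702587, lies in the Meg3 to Mirg region, whose noncoding RNAs are expressed from the maternal chromosome. It had 191 and 464 counts in Input, against 707 and 1601 with LacZ probes, 1036 and 1600 with ODD probes and 1030 and 1155 with EVEN probes. In CPM, Input was at 7.87 and 22.6 and the pull-downs between 83.3 and 154, with no overlap. The log2 fold changes were 2.92, 2.96 and 2.65 (adjusted p 0.022, 0.0223 and 0.0375 by edgeR). Without Input replicate 1 they were 2.34, 2.38 and 2.07, at adjusted p 0.0893, 0.096 and 0.145. The call was also lost in LacZ without LacZ replicate 2 (0.104), in ODD without ODD replicate 2 (0.0792), and in EVEN without LacZ replicate 1 (0.0594) or 2 (0.0598) or EVEN replicate 1 (0.113) or 2 (0.122), or with the filter of 50 counts (0.0569).

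A230057D06Rik (ENSMUSG00000109394) and Gm9801 (ENSMUSG00000045813) are neighbours on the minus strand of chromosome 7, from 61704519 to 61928690 and from 62094506 to 62209479. Their nearest coding gene is Ndn, an imprinted gene of neurons. A230057D06Rik had 7.91 and 13.5 CPM in Input, against 53.8 and 77.1 with LacZ probes, 59.3 and 70.8 with ODD probes and 60.5 and 55.0 with EVEN probes. Its changes were 2.61, 2.60 and 2.43 (SE 0.31 each), at adjusted p 0.00478, 0.0053 and 0.00824 by edgeR. Without Input replicate 1 the adjusted p of A230057D06Rik was 0.051 in ODD and 0.0702 in EVEN, and its call in LacZ was kept. Gm9801 had 247 and 415 counts in Input, against 590 and 931 with LacZ probes, 838 and 882 with ODD probes and 818 and 820 with EVEN probes. The next lincRNA in line, Gm32061 on the same strand, had 47 and 90 counts in Input and log2 fold changes of -0.07, -0.45 and -0.10, and Ndn had -0.42, -0.28 and -0.31. None of those 6 values passed the test. Of the 13 lincRNAs, 11 had a nearest coding gene that was tested, and 0 of these coding genes were called higher in all 3 pull-downs. This was also so for the 263 tested coding neighbours of all tested lincRNAs, of which 0 were called. Of all tested protein-coding genes, only 0.557%, 0.543% and 0.535% were called higher in LacZ, ODD and EVEN. Calls among these neighbours would thus be rare in any case, and the 0 is no result about these loci.

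**Figure D3:**
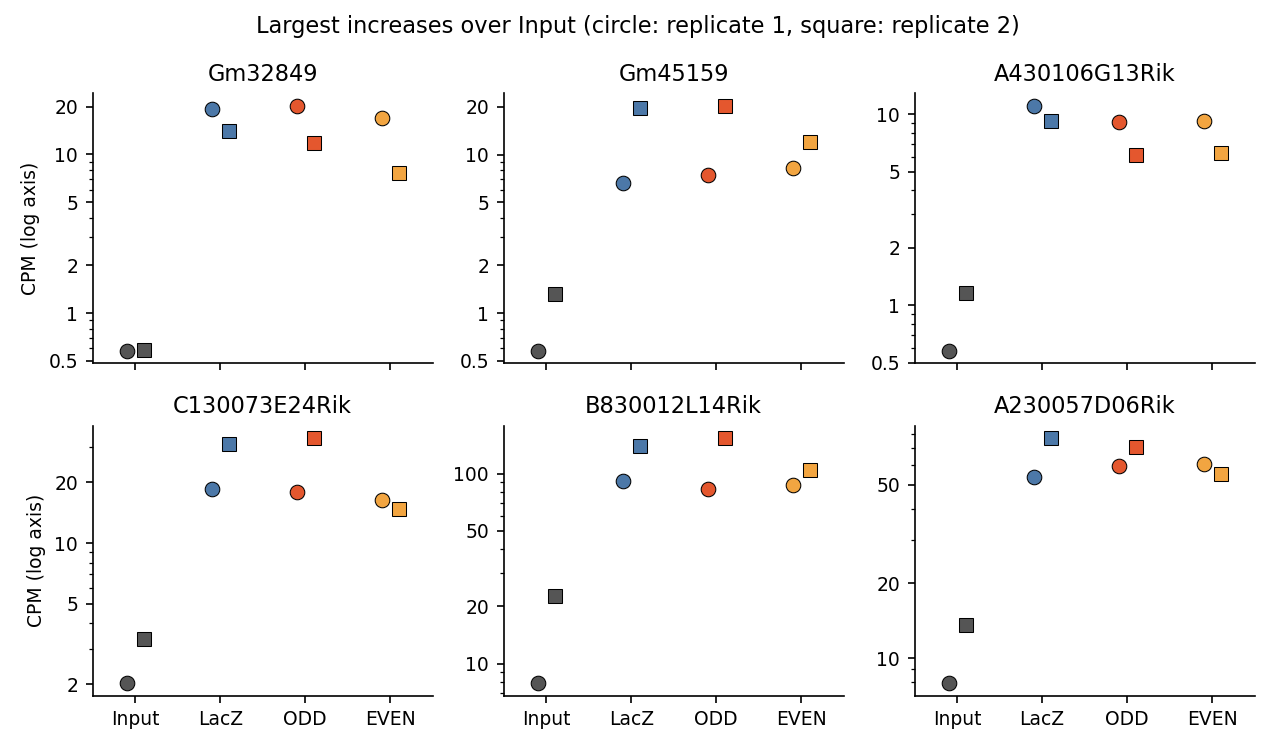
CPM (log axis) in each library by group for the 6 lincRNAs with the largest increases among those with 20 or more Input counts; circles are replicate 1 and squares replicate 2. All 6 pull-down libraries lie above both Input libraries in each panel, and the LacZ libraries are as far above Input as those of ODD and EVEN. Gm32849, Gm45159 and A430106G13Rik needed pull-down libraries to pass the low-count filter.

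At the other end, the lincRNAs with 100 or more Input counts and the lowest mean change were Gm15706, Gm46404, Gm10076 and Gm32885, and none passed the test. Gm15706 had 66 and 86 counts in Input, against 18 and 23 with LacZ probes, 26 and 23 with ODD probes and 29 and 23 with EVEN probes. Its log2 fold changes were -0.68, -0.68 and -0.61 (adjusted p 0.353, 0.351 and 0.398 by edgeR), and all pull-downs were below both Input libraries in CPM. Gm46404 was at -0.51, -0.94 and -0.44, Gm10076 at -0.49, -0.68 and -0.68, and Gm32885 at -0.20, -0.67 and -0.92. In ODD, Gm46404 was called in 1 of 15 alternative fits.

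Both lincRNAs with no counts in Input were rare. Gm35501 had 2 and 2 counts with LacZ probes, 11 and 1 with ODD probes and 9 and 4 with EVEN probes. With Input set to a floor of 3 counts over its 2 libraries together, the mean CPM of Gm35501 was 3.23 times that floor in LacZ, 7.33 times in ODD and 8.38 times in EVEN. Gm16046 had 1 and 7 counts with LacZ probes, 4 and 10 with ODD probes and 3 and 2 with EVEN probes. Its means were 5.52, 9.59 and 3.24 times the same floor. Neither was tested. The floor covers counting error in Input only, since the reads carry no molecular identifiers. The pull-down means rest on few counts with an error of their own.

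The level in Input is the denominator of the change and entered the choice of genes and the filter, so its relation to the change is plotted as a description only. Across the 352 tested lincRNAs, GC content had a Spearman rho of -0.21 with the mean log2 fold change over Input, where all genes with a GC value had -0.31 (n = 16508). Split by GC content into 4 equal groups, the medians were 0.37 and 0.37 in the AT-rich groups and 0.10 and 0.12 in the GC-rich ones. Length had a rho of 0.13, the distance to the nearest coding gene 0.14, the change of that gene 0.19 (n = 282) and the number of exons 0.08. The share of low-complexity sequence had a rho of 0.03. The genes share the same libraries and are not independent, so no p is given.

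**Figure D4:**
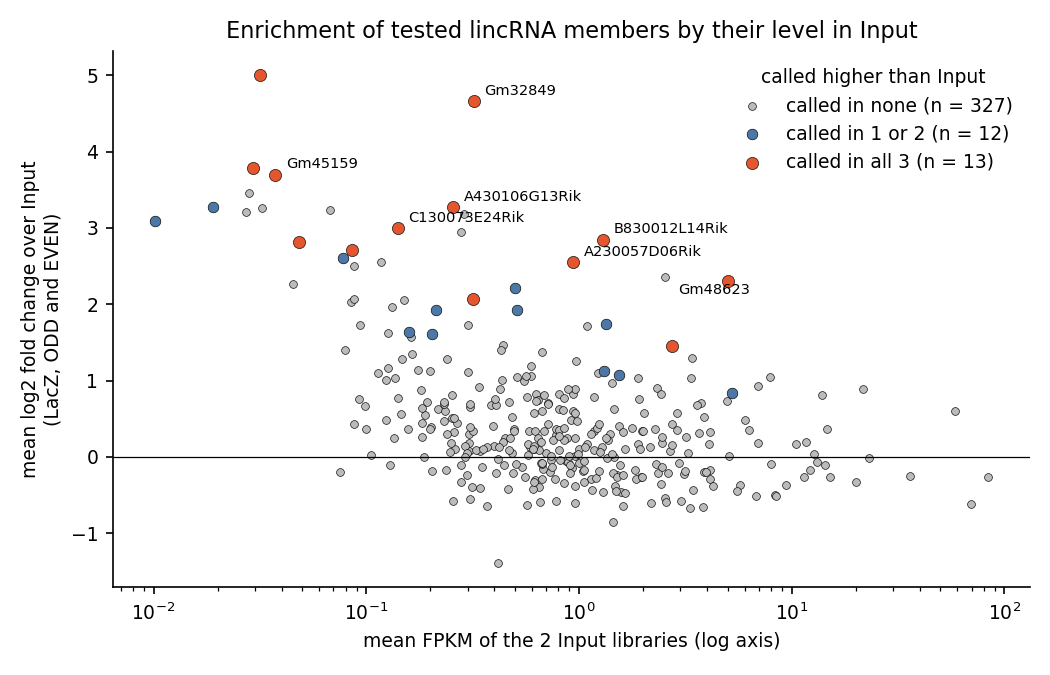
Mean log2 fold change over Input of the 3 pull-downs (y axis) against mean FPKM in Input (x axis, log) for the 352 tested lincRNAs; colours show in how many pull-downs a gene was called higher. The 13 called in all 3 (red) spread over FPKM from 0.0293 to 5.02, and most genes above 1 FPKM lie near 0. Input counts enter both axes, and at least 31 genes of low Input counts were tested because of their pull-down counts.

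The direct comparisons asked whether the Lhx1os probes recovered lincRNAs that the LacZ probes did not. No lincRNA was called in ODD against LacZ, EVEN against LacZ, their mean against LacZ, or ODD against EVEN, by edgeR's quasi-likelihood test, and 0.0% of all genes were called in each. DESeq2 called 0 lincRNAs in each of the 4 comparisons too. The captured Lhx1os itself was not called in these comparisons by edgeR's test. Its log2 fold change for the mean against LacZ was 5.42, rank 1 of 16524 genes (p 0.00172, adjusted p 0.9999 by edgeR). Over Input, the same test called Lhx1os in ODD (5.36, adjusted p 0.0322) and EVEN (5.06, 0.0433) and not in LacZ (-0.20, 0.957). Having missed the captured RNA against LacZ, the test cannot show that no lincRNA was recovered with it. Of all genes, 1.03% had an unadjusted p under 0.05 between ODD and LacZ, 1.71% between EVEN and LacZ, 1.32% for the mean and 0.775% between ODD and EVEN. Of the 352 lincRNAs these were 1 for ODD against LacZ (Gm48623), 3 for EVEN (Gm48623 at 2.80, Gm49797 at 0.64 and Gm32647 at -0.99), 1 for their mean (Gm48623) and 4 for ODD against EVEN (Gm46378 at 1.24, Gm49201 at 1.40, Gm20083 at -0.95 and Gm49797 at -0.51). Apart from Gm48623 these were named after their values were seen. Without the filter on low counts, the same test called 1 lincRNA in each comparison with LacZ, again Gm48623, among 75 genes in all for ODD, 72 for EVEN and 81 for their mean. The median change of the 352 was -0.04 for ODD and -0.09 for EVEN against LacZ, against 0.01 and 0.02 for all genes.

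Gm48623 (ENSMUSG00000112941) spans bases 54301959 to 54312797 of chromosome 13 (plus strand) and has 2 transcripts. It had 97 and 62 counts in Input, against 29 and 69 with LacZ probes, 769 and 80 with ODD probes and 676 and 126 with EVEN probes. In FPKM these were 2.88 and 2.21, 2.78 and 4.53, 44.8 and 5.70, and 41.6 and 7.99. Replicate 1 of both Lhx1os probe sets stood far above every other library, and replicate 2 of both was above Input and LacZ by a smaller step. Over LacZ, the CPM ratio was 16.5 in ODD and 15.3 in EVEN in replicate 1, and 1.28 and 1.89 in replicate 2.

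The log2 fold change of Gm48623 against LacZ was 2.82 in ODD (SE 1.08, p 0.0349), 2.80 in EVEN (SE 1.08, p 0.036) and 2.81 for their mean (SE 1.01, p 0.0276), all with adjusted p 1.00 by edgeR. By size of change the mean ranked 5 of 16524 genes, and the next lincRNA was 2310040G24Rik at 1.30. Without replicate 1 of the pull-down concerned the change fell to 0.64 in ODD and 1.20 in EVEN. The adjusted p for the mean was 0.999909 with the block, 0.867 with the block on pull-down libraries alone, 0.705 in DESeq2 and 5.06e-07 without the low-count filter.

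Over Input, Gm48623 was at 0.49 in LacZ (adjusted p 0.885), 3.31 in ODD (0.147) and 3.28 in EVEN (0.155) by edgeR. With the replicate block it passed in ODD (2.91, adjusted p 0.0351) and EVEN (2.98, 0.0322) and not in LacZ (0.70, 0.604). DESeq2 also called it in ODD (adjusted p 0.00349) and EVEN (0.00434), and edgeR did in ODD without ODD replicate 2 (4.13, 0.0492).

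The nearest coding gene, Cplx2, a complexin that binds the synaptic vesicle fusion machinery, starts 58.552 kb downstream on the same strand. As with Gm48623, its highest libraries were replicate 1 of ODD and EVEN, followed by replicate 2 of EVEN and of ODD. Cplx2 had 4773 and 6059 counts in Input, against 2554 and 3866 with LacZ probes, 52868 and 6500 with ODD probes and 43600 and 10846 with EVEN probes. For the mean against LacZ its log2 fold change was 2.84 (p 0.0151, adjusted p 1.00 by edgeR), rank 3 of all genes. Over Input it was 3.31 in ODD and 3.25 in EVEN (adjusted p 0.108 and 0.119, and 0.0481 and 0.0429 with the block). The captured Lhx1os had 2239 and 371 counts in ODD and 1767 and 283 in EVEN, so the replicate 1 library was the high one for all 3 genes. The ratio of replicate 1 to replicate 2 in CPM was 8.04 in ODD and 5.05 in EVEN for Gm48623, 6.81 and 3.78 for Cplx2, and 5.05 and 5.88 for Lhx1os. Whether reads of Gm48623 come from a transcript joined to Cplx2 was not tested.

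**Figure D5:**
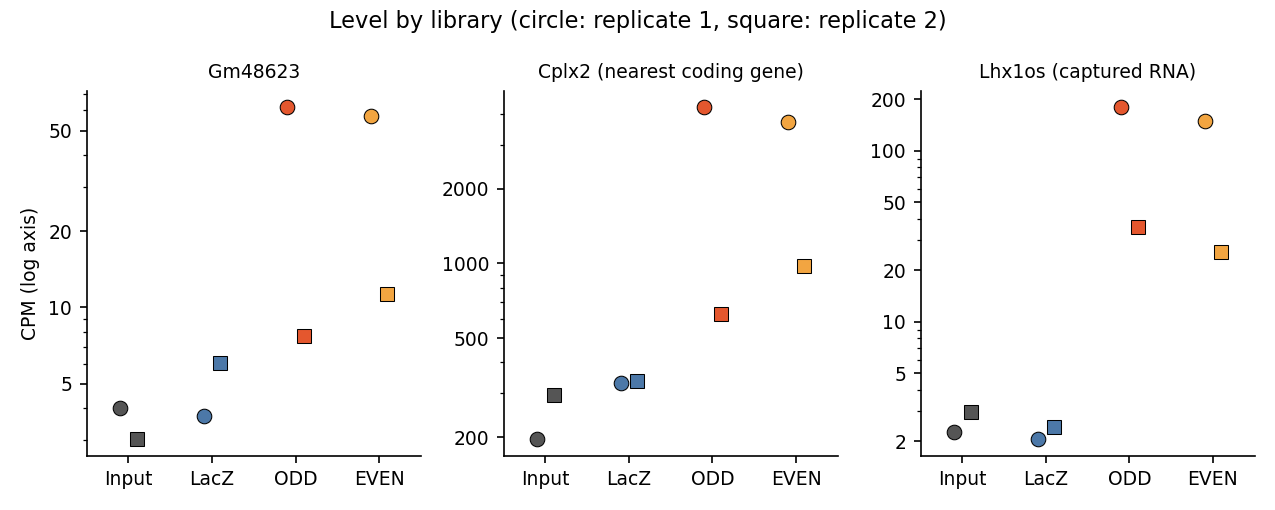
CPM (log axis) in each library by group for Gm48623, its nearest coding gene Cplx2 and the captured Lhx1os; circles are replicate 1 and squares replicate 2. In all 3 panels the ODD and EVEN circles are highest and the ODD and EVEN squares come next, above Input and LacZ.

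The lincRNAs with long exact matches with Lhx1os, shown in capitals above, were not found to differ between its probes and the LacZ probes. A match of 20 bases or more, the length of a probe, was present on the same strand in 11 of the 568 lincRNAs (1.94%, against 2.61% of 18378 other genes) and antisense in 11 (1.94%, against 2.36%). Of each kind 8 were tested. With ODD and EVEN averaged, their median log2 fold change over LacZ was -0.13 on the same strand and -0.10 antisense, where all tested lincRNAs had -0.06. The 8 same-strand values ran from -0.57 to 0.23 and the 8 antisense values from -0.59 to 0.40, and none had an unadjusted p under 0.05. Antisense matches of 12 bases or more were in 150 lincRNAs (26.4%, against 35.7% of other genes), of which 101 were tested and 1, Gm48623, had p under 0.05.

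Of the genes whose matches are printed, Gm20342 (ENSMUSG00000101599), a single exon on chromosome 1 from 63117118 to 63126837, had a match of 20 bases and was higher than Input with LacZ and ODD probes. It had 8.73 and 17.3 CPM in Input, against 43.1 and 51.5 with LacZ probes, 36.8 and 53.8 with ODD probes and 40.2 and 35.95 with EVEN probes. Its log2 fold changes over Input were 1.86 in LacZ (adjusted p 0.0225), 1.80 in ODD (0.0266) and 1.55 in EVEN (0.0512, and 0.00533 with the block), and against LacZ -0.19 (p 0.538). The calls of Gm20342 were lost without Input replicate 1 (0.092 in LacZ and 0.11 in ODD), in LacZ without LacZ replicate 1 (0.0581) or 2 (0.118), and in ODD without ODD replicate 2 (0.12), EVEN replicate 1 (0.0516) or EVEN replicate 2 (0.0511).

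Gm49092, with the longest same-strand match of 24 bases, had 24 and 11 counts in Input, against 6 and 13 with LacZ probes, 16 and 10 with ODD probes and 9 and 8 with EVEN probes, and its groups overlapped. Its log2 fold change against LacZ was -0.08 (p 0.857). Gm42595, with 22 bases, was at -0.40 (p 0.19). Gm21269, with the longest antisense match of 32 bases, had 1 count in Input and 7 or fewer in each pull-down library, and Gm46565, with 22, had 2 to 4 counts in each library, so neither was tested. Jpx, an RNA that activates Xist, has a match of 20 bases on each strand and was at 0.11 (SE 0.19, p 0.572).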

How the data were processed

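RNA was sequenced in 8 libraries, 2 each of Input, LacZ, ODD and EVEN, after ribosomal depletion with a stranded total RNA kit, per the labels. The authors deposited raw read counts, as whole numbers for each Ensembl gene, and FPKM values with a length for each gene. The submitters' processing notes name cutadapt 3.2, Bowtie2 2.4.2, Picard, HTSeq 0.13.5 and the build GRCm38, with no role or order; the sources used here do not give the annotation or the strand setting of counting. Deposited FPKM values equal the deposited counts over length and library total (largest relative difference 6.66e-14), so both hold 1 measurement. Of 55471 identifiers, 55230 are in GENCODE M21, and 99.1% of these have the same exonic length there, so classes, coordinates and transcript sequences come from that release.

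The test on counts was that of edgeR 4.0.16 (R 4.3.3): TMM scaling, the default low-count filter by group (16524 genes), the quasi-likelihood test on all 8 libraries with group as the only term, and Benjamini-Hochberg adjustment over all genes tested, with a threshold of 0.05. P-values are two-sided, and the threshold of a call is an adjusted p under 0.05 throughout. A check on simulated counts was made for LacZ against Input: of 200 genes among 16524 changed by 3 on the log2 scale, 94% were recovered, with 20 of 208 calls false. That share of false calls was above the threshold of 0.05. The changed genes all had a mean CPM above 2, and libraries were simulated without a shared deviation by experiment. The check thus does not cover rarer lincRNAs or the batch. Replicates of a group differed by a chi-square per degree of freedom of 31.5 to 61.5, so none was a duplicate. By the labels, a replicate number marks a batch, 1 of 2 independent experiments. Libraries that share a number deviated together from their group means, with r of 0.534 to 0.765 in the 6 pairs of groups. Fits with the replicate as a block are therefore given beside the counts of calls and the named genes whose call they change. Other alternatives were the block with a GC trend (natural spline, 5 degrees of freedom) removed, RLE size factors, DESeq2 1.42.0, total library size, no low-count filter, 50 counts in 2 libraries, limma 3.58.1 on log2(FPKM + 1), genes with 100 or more counts, and leaving out each library. A group left with 1 library was assumed to vary like the others. The block on pull-down libraries alone was added after the data were seen.

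Low-complexity sequence was found with dustmasker at level 20, and exact matches with Lhx1os were extended from seeds of 11 bases on both strands. The genes and lists were chosen with earlier results of these data known. Named in the text were the 6 most abundant in Input; of those with 20 or more Input counts called in all 3 pull-downs, the 6 with the largest mean change; of those with 100 or more Input counts, the 4 lowest; those with p under 0.05 against LacZ when ODD and EVEN were averaged, on 1 side in both replicates; those at 0 in Input; the 3 longest matches with Lhx1os on each strand; and listed genes with 100 or more counts.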

Additional observations from a re-analysis of the deposited data

How the results depend on the processing

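Counts of lincRNAs called over Input kept their direction under every alternative that gave a call, but moved in size. With the replicate block, 60, 64 and 57 were higher and 2, 2 and 4 lower in LacZ, ODD and EVEN; with the block and the GC correction these were 61, 62 and 53 and 12, 18 and 13. Without the low-count filter, 51, 53 and 38 were higher (8.98%, 9.33% and 6.69%, against 6.37%, 6.34% and 5.81% of all genes). In that fit 1, 1 and 1 were lower (against 1.14%, 0.979% and 0.784% of all genes). It also called 1 in ODD against LacZ, in EVEN against LacZ and in their mean against LacZ. With 50 counts in 2 libraries, which tests 137 of the 568, 9, 9 and 6 were higher (6.57%, 6.57% and 4.38%, against 4.05%, 3.84% and 3.56% of all genes). Limma gave 9 in ODD and 6 in EVEN (2.56% and 1.70%, against 4.62% and 2.52%). Leaving out a library gave 2 to 20 in LacZ, 1 to 16 in ODD and 0 to 11 in EVEN, with 0 lower and 0 called in the direct comparisons. DESeq2, RLE size factors, total library size and the limit of 100 counts stayed within 1.5 times for these counts; beyond the fewer genes tested under the filter of 50, the cause of the other moves was not tested. Of 2611 values for 41 named genes under the alternatives, 138 lost their call, 61 gained one and 129 changed sign without a call in either fit. Mir124-2hg in EVEN against Input changed from 0.10, not called, to -0.42 (adjusted p 0.0458) with the block and the GC correction. The 2 libraries a group and the low counts of most lincRNAs limit precision: a gene under 20 counts in Input is known only to within its counting error, and 216 of the 568 were not tested.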
